A study of Mus musculus with 15 samples.

Results

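Camk2n1 and Camk2n2 encode small proteins that inhibit calcium/calmodulin-dependent protein kinase II (CaM kinase II), and Camk2a, Camk2b, Camk2d and Camk2g encode the subunits of that kinase. They were followed in cultures of mouse spermatogonial stem cells, which sustain sperm production in the testis, when GDNF (glial cell line-derived neurotrophic factor) and its soluble co-receptor GFRalpha1 were taken away and given back. The members were the probe sets whose platform symbol is one of these 6 genes, which gave 19 of the 45101 probe sets on the array. Which values chose the members is not recorded. Camk2n1 was taken to have been chosen by its signal on withdrawal against maintained cultures, where its brighter probe set was among the strongest rises. The other genes were taken to have been chosen because they belong to the same enzyme system. Withdrawal against maintained cultures is therefore described here with no p for any member, and Camk2n1 carries no p in any contrast that uses withdrawal or maintained arrays.

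All cultures came from C57BL/6 males aged 6 days and were grown without serum. The groups, of 3 arrays each and 15 in all, were cultures after 18 h without GDNF and GFRalpha1, cultures given both factors again for 2, 4 or 8 h after those 18 h, and cultures kept in both factors and bFGF throughout (maintained). No group labelled as left without the factors for longer than 18 h was among them, so the return of the factors cannot be told apart from added hours in culture or from handling. Values are MAS5 signal, a per-probe-set intensity in arbitrary units that the authors scaled on each array. Nothing in the labels says whether the 3 replicates were grown apart, so p-values measure only the spread between these arrays, which may be technical. The number of arrays limits the precision. In an exact permutation test of 3 arrays per side the smallest possible p is 0.1, so tests come from limma fitted to all probe sets, with p-values adjusted over the 27022 probe sets above a signal of about 30.5.

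CaM kinase II assembles into a large ring of subunits, alpha, beta, gamma and delta. Calcium-loaded calmodulin switches a subunit on, and phosphorylation between neighbouring subunits then keeps it active after calcium has fallen. The proteins made from Camk2n1 and Camk2n2 bind the active kinase and block it. The alpha and beta subunits are best known from brain, whereas gamma and delta are made in many tissues. In spermatogonial stem cells GDNF signals through the receptor RET, with downstream Src family, ERK and AKT kinases. A change in an inhibitor's transcript says nothing by itself about kinase activity, which was not measured.

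Germ cell transcripts were measured on every array. All 8 germ line markers (Ddx4, Dazl, Zbtb16, Sall4, Gfra1, Ret, Tex14 and Mael) were above the filter, with Dazl between 4111.5 and 7640.1. Of 12 fibroblast markers 11 were above the filter, and of 6 blood and mast cell markers on the array 5 were. In bulk RNA, fewer cells of a type and less RNA per cell cannot be told apart. Median signal per array ran from 42.5 to 55.8. Withdrawal replicate 3 stood apart in the beta-actin control, where its 3' to 5' signal ratio was 2.77; the remaining arrays lay between 1.10 and 1.75.

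Of the 19 member probe sets, 10 were above the filter: both for Camk2n1, the single ones for Camk2n2 and Camk2b, 1 of 6 for Camk2a, 3 of 7 for Camk2d and both for Camk2g. The other 9, for Camk2a and Camk2d, had median signals between 1.5 and 29.3 over the 15 arrays. They were fitted only when the filter was dropped. In that fit 0 of 45 limma tests were called in the contrasts other than withdrawal against maintained, and 3 had an unadjusted p under 0.05. Over the whole array without its 64 control probe sets, the fit called 12 at 2 h, 94 at 4 h and 191 at 8 h against withdrawal. It called 39 at 8 h against maintained cultures and 144 at 8 h against 2 h. With so few calls in all, nothing is read from the 0. The share of all probe sets with such an unadjusted p is not given for that fit, so nothing is read from the 3.

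The inhibitor Camk2n1 gave the one large pattern among the members. On its probe set 1456609_at the arrays after withdrawal read 811.1, 790.9 and 1023.4, against 145, 164 and 148.1 in maintained cultures. The lowest withdrawal array thus lay far above the highest maintained one. The means were 875 ± 129 after withdrawal and 152 ± 10.2 in maintained cultures (SD, n = 3 each), a log2 difference of 2.40, or 2.28 without withdrawal replicate 3. In this contrast, taken here as the choosing contrast for Camk2n1, 1 of the 10 member probe sets was called by limma and 4.42% of all probe sets were. Nothing is read from that count.

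After the factors came back, the Camk2n1 signal was lower at each later time. It read 783.2, 613.2 and 528 at 2 h, 647.4, 441.3 and 548.4 at 4 h, and 243, 302.1 and 297.4 at 8 h. The means were 641 ± 130, 546 ± 103 and 281 ± 32.8 at 2, 4 and 8 h (SD, n = 3 each). In log2 terms the differences were -0.45 at 2 h, -0.67 at 4 h and -1.58 at 8 h from withdrawal, and 0.81 at 8 h from maintained cultures.

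Ordered by mean signal, the groups ran maintained, 8 h, 4 h, 2 h and withdrawal. Arrays at 4 h and 2 h overlapped. The other neighbours in that order did not overlap, although the highest array at 2 h, 783.2, came close to the lowest after withdrawal, 790.9. Of the withdrawal rise on the log2 scale, 81.3% was left at 2 h, 71.9% at 4 h and 34.0% at 8 h.

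**Figure D1:**
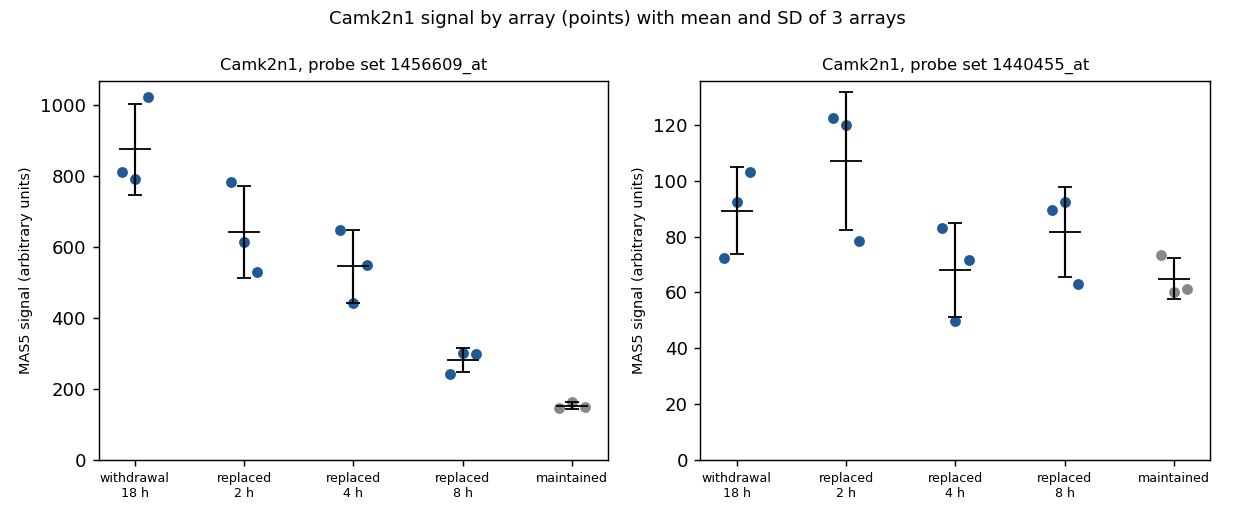
MAS5 signal (arbitrary units, vertical axis from 0) of the 2 Camk2n1 probe sets in each group, with a point per array and the mean and SD of 3 arrays in black. On 1456609_at the mean is 875 after withdrawal, 281 after 8 h of replacement and 152 in maintained cultures, whereas the groups of 1440455_at lie between 49.8 and 122.6 with no such order.

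The step within the replacement period compared none of the arrays in which Camk2n1 was taken to have been chosen, and there it fell. That choice is an assumption, since members were chosen with earlier results of these data known. The p below may therefore depend on the choice, and its spread came from all 15 arrays. At 8 h all 3 arrays, 243 to 302.1, were below all 3 at 2 h, 528 to 783.2. The fall was a log2 of -1.14 (SE 0.17, 95% interval -1.50 to -0.77), 2.2-fold lower, with a limma adjusted p = 0.0109. It ranked as number 30 among the falls of 27022 probe sets in that contrast, in which 0.807% of probe sets were called and 1 of the 10 member probe sets was. Without 8 h replicate 1 the fall was -1.04 and missed the threshold (limma adjusted p = 0.0572). Markers of other cells differed in the same contrast. The summed signal of the 12 fibroblast markers was 9552.5 to 11768.4 at 8 h, against 3570.4 to 6305.1 at 2 h, with all 12 means higher at 8 h. That of the 6 blood and mast cell markers was 2381.7 to 3918.5 at 8 h, against 1556.1 to 2609 at 2 h, again with all 6 means higher. The 8 germ line markers summed to 13238.2 to 14559.3 at 8 h, against 15016 to 16188.6 at 2 h, and all 8 means were lower at 8 h. Arrays at 8 h and 2 h did not overlap for 5 of these 8, all lower. They did not overlap for 11 of the 12 fibroblast and 4 of the 6 blood and mast cell markers, all higher. Of all probe sets, 22.7% did not overlap in this contrast. Other lists also had higher sums at 8 h than at 2 h, without overlap. For Sertoli markers the sum was 700 to 726 against 465.7 to 587.9, and for Leydig markers 271.7 to 401.7 against 147.7 to 206.9. Peritubular and smooth muscle markers summed to 439.5 to 523.2 against 305.9 to 417.2, and neuron and glia markers to 340.1 to 389.1 against 214.4 to 326.6. Endothelial sums overlapped. The part of cell composition in the Camk2n1 fall was not tested.

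The second Camk2n1 probe set, 1440455_at, did not follow the first. It read 72.3, 92.4 and 103.2 after withdrawal, 122.6, 119.9 and 78.5 at 2 h, 83, 49.8 and 71.5 at 4 h, 89.4, 92.5 and 63.1 at 8 h, and 73.4, 60.1 and 61.4 in maintained cultures. Withdrawal and maintained arrays overlapped, with a log2 difference of 0.37 between them. Between 8 h and 2 h its log2 difference was -0.33 (95% interval -0.77 to 0.12, limma adjusted p = 0.572), an interval that does not reach the fall of the first probe set. Pearson's r between the probe sets was 0.52 over the 15 arrays, which share the group structure. The sequence behind this second probe set is listed by RefSeq as a synonym of Camk2n1, and which part of the transcript either probe set reads was not examined.

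Camk2n2, the second inhibitor gene, stayed within a narrow band. Its probe set 1429204_at read 126.6, 95 and 116.1 after withdrawal, against 118.6, 146.9 and 142.9 in maintained cultures. These arrays overlapped, and the log2 difference was -0.25. Means at 2, 4 and 8 h were 119 ± 13.6, 112 ± 19.7 and 121 ± 8.86 (SD, n = 3 each). At 8 h against withdrawal the log2 difference was 0.10 (95% interval -0.24 to 0.43, limma adjusted p = 0.853).

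**Figure D2:**
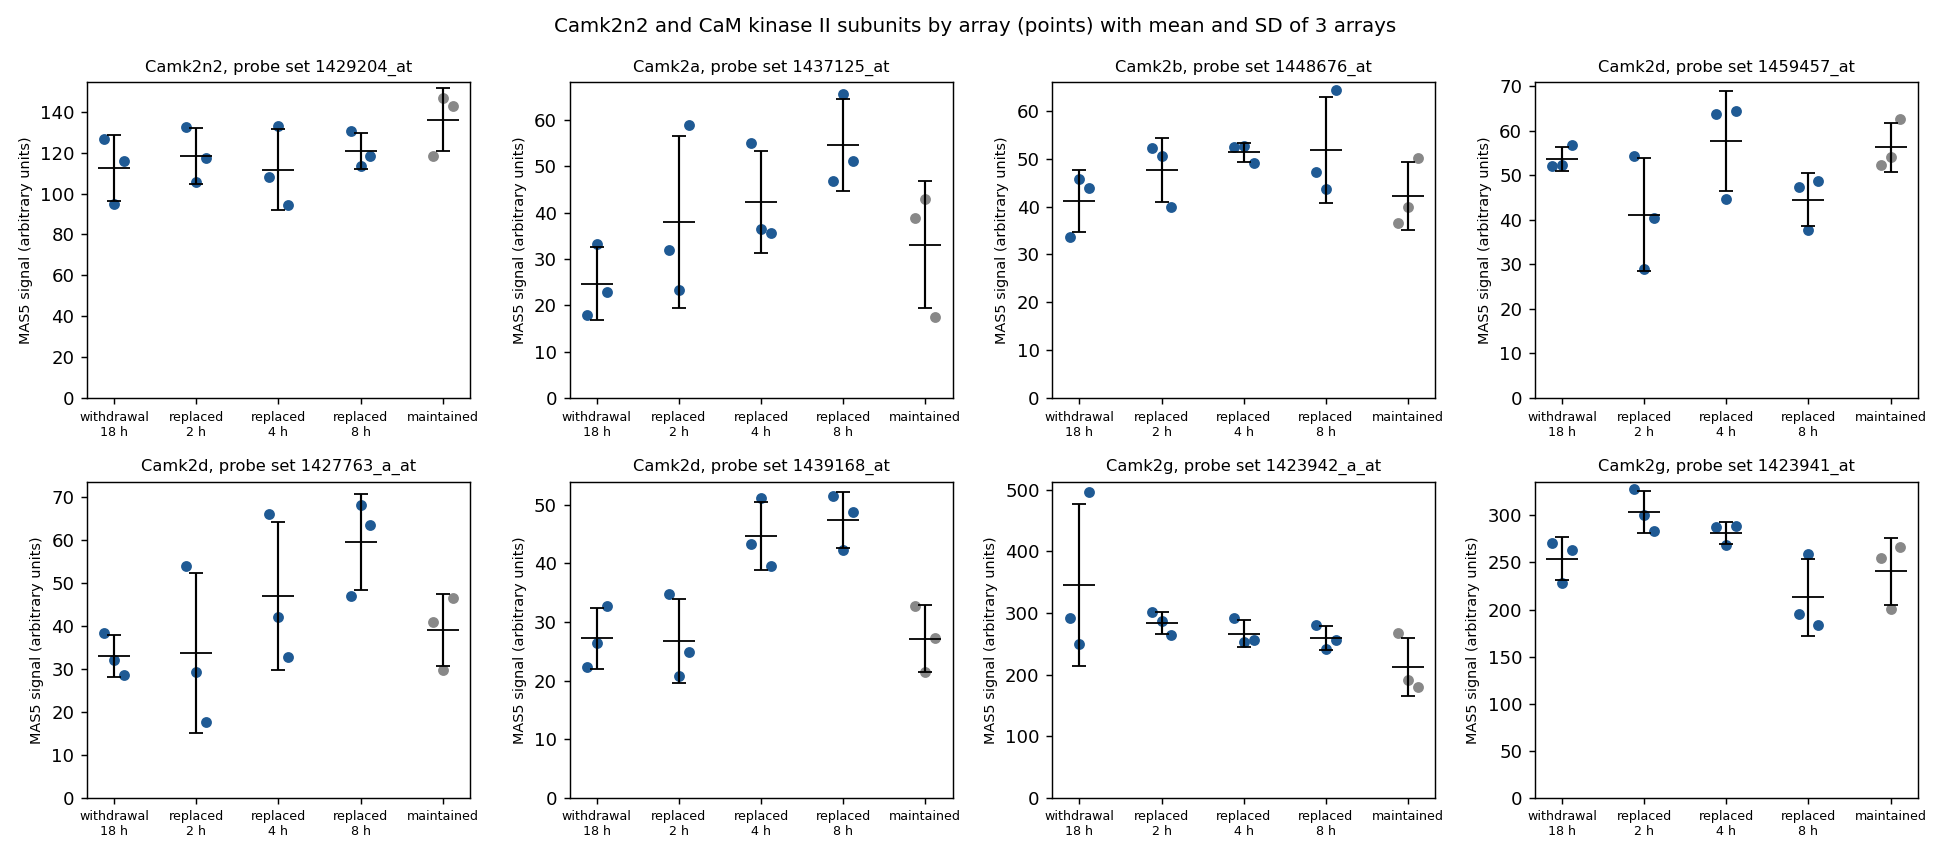
MAS5 signal (arbitrary units, vertical axes from 0) of the 8 probe sets above the filter for Camk2n2, Camk2a, Camk2b, Camk2d and Camk2g, with a point per array and the mean and SD of 3 arrays in black. Withdrawal replicate 3 is the high point of Camk2g 1423942_a_at at 496, and the arrays of Camk2d 1439168_at at 4 h and 8 h, 39.6 to 51.5, all lie above its other arrays.

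Camk2g, the gamma subunit gene, had 2 probe sets well above the filter, and no test of either was called. On 1423942_a_at the withdrawal arrays read 291.1, 249.7 and 496, against 266.9, 190.8 and 180.6 in maintained cultures. The groups overlapped, and the high value came from withdrawal replicate 3, the array with the high actin ratio. The log2 difference was 0.62, and 0.34 without that array. The part of RNA quality in that value was not tested.

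The other Camk2g probe set, 1423941_at, had its highest mean at 2 h. It read 327.6, 300 and 283.8 at 2 h, 287.2, 268.1 and 288.6 at 4 h, and 195.1, 259.2 and 184 at 8 h. The withdrawal arrays read 270.5, 228.4 and 263.3 and the maintained ones 254.2, 200.5 and 266.6. At 8 h against 2 h the arrays did not overlap, and the log2 difference was -0.50 (95% interval -0.81 to -0.18). With a limma adjusted p = 0.15, the lowest for members other than Camk2n1 in the 5 contrasts other than withdrawal against maintained, this difference was not called. The first Camk2g probe set was at -0.12 in the same contrast.

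Camk2d, the delta subunit gene, was read by probe sets that disagreed. On 1439168_at signal was 43.3, 51.1 and 39.6 at 4 h and 51.5, 42.2 and 48.7 at 8 h, against 22.4, 26.4 and 32.8 after withdrawal. At 2 h it was 34.7, 20.8 and 24.8, and maintained cultures read 32.8, 21.4 and 27.3. The arrays at 4 h and 8 h lay above all others. Means were 44.7 at 4 h and 47.5 at 8 h, but 27.2 after withdrawal, 26.8 at 2 h and 27.2 in maintained cultures. This probe set thus passed the filter, near a signal of 30.5, only through the groups where it was high. The log2 difference at 8 h was 0.56 from withdrawal (95% interval 0.13 to 0.99) and 0.56 from maintained cultures, neither called by limma (adjusted p = 0.227 and adjusted p = 0.236).

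On 1427763_a_at the log2 difference at 8 h was 0.62 from withdrawal (limma adjusted p = 0.34), with means of 59.7 ± 11.1 at 8 h and 33.1 ± 4.86 after withdrawal (SD, n = 3 each). Probe set 1422659_at, just under the filter, read 35.7, 52.4 and 46.4 at 8 h, against 15.4, 21.9 and 34 after withdrawal. Its log2 difference was 0.63, not called with the filter dropped (limma adjusted p = 0.388). The Camk2d probe set 1459457_at went the other way, with a mean of 44.5 ± 6.01 at 8 h, against 53.7 ± 2.63 after withdrawal (SD, n = 3 each; log2 -0.21, limma adjusted p = 0.713).

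Fibroblast markers moved with the higher Camk2d probe sets. The summed signal of the 12 markers ran from 9496.8 to 11613.8 at 4 h and 9552.5 to 11768.4 at 8 h. It ran from 5552.9 to 8386.6 after withdrawal, 3570.4 to 6305.1 at 2 h and 4909.7 to 7094.5 in maintained cultures. All 12 had a higher mean at 8 h than after withdrawal. The sum of the 6 blood and mast cell markers was 2381.7 to 3918.5 at 8 h, against 1358.8 to 1707.2 after withdrawal. Leydig markers summed to 271.7 to 401.7 at 8 h, against 212.7 to 219.2 after withdrawal. Peritubular and smooth muscle markers summed to 439.5 to 523.2, against 377.9 to 394.8. Sertoli, endothelial, neuron and glia, and germ line sums overlapped between these groups. The part of these cells in the Camk2d values was not tested.

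The brain-type subunit genes read near or under the filter, as Camk2d did. Camk2a, the alpha subunit gene, was measured above the filter by 1437125_at, which read 46.8, 65.7 and 51.2 at 8 h, against 18, 33.3 and 22.8 after withdrawal. These arrays did not overlap, and the log2 difference was 0.80 (95% interval 0.21 to 1.40, limma adjusted p = 0.208). Maintained cultures read 38.9, 42.9 and 17.5, below every 8 h array. At such low signal the constant of 16 added before taking logs shapes the difference. The same holds for Camk2d, whose 3 probe sets above the filter had medians of 52.2, 41 and 32.8.

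Among the Camk2a probe sets under the filter, 1441734_at read 22, 78.9 and 60.4 at 4 h and overlapped every other group. On 1442707_at the 8 h arrays read 25.9, 43.2 and 46.7, just above the 25, 12.6 and 25 after withdrawal. They overlapped maintained cultures (17.4, 34.8 and 23.1). Its log2 difference from withdrawal was 0.56, not called with the filter dropped (limma adjusted p = 0.662). Probe sets 1443876_at, 1457311_at and 1452453_a_at had medians of 5.4, 6.5 and 1.5. Camk2b, the beta subunit gene, read 47.2, 43.7 and 64.4 at 8 h, against 33.7, 45.8 and 43.9 after withdrawal on 1448676_at. These overlapped, with a log2 difference of 0.24 (95% interval -0.16 to 0.64, limma adjusted p = 0.643). Of the 6 neuron and glia markers 4 were above the filter (Syn1, Rbfox3, Gfap and Syp, with medians of 90.9, 77.6, 57.5 and 42.8), and Tubb3 and Snap25 were under it (28.6 and 20.1). Those markers summed to 340.1 to 389.1 at 8 h, against 320.4 to 399.6 after withdrawal.

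Counted together, the 8 probe sets of members other than Camk2n1 gave 0 calls in 40 limma tests over 5 contrasts, with 8 at an unadjusted p under 0.05. Of all probe sets, 7.37% to 16.5% had such a p, depending on the contrast. Against withdrawal, 0 of 8 were called at 2 h, where 0.0407% of all probe sets were, 0 at 4 h (all probe sets, 0.877%) and 0 at 8 h (all probe sets, 1.03%). Set against maintained cultures, 0 of 8 were called at 8 h, with 0.192% of all probe sets. At backgrounds this low, a count of 0 among 8 is near what all probe sets gave. Arrays at 8 h and after withdrawal did not overlap for 4 of the 8, of which 3 were higher (Camk2a and 2 of Camk2d) and 1 lower (Camk2d), where 19.2% of all probe sets did not overlap. The 3 Camk2d probe sets share a gene and are not separate cases. Of these, 1439168_at passed the filter only through its high groups at 4 h and 8 h. Nothing is therefore read from the 4 of 8, nor from the 8 tests with an unadjusted p under 0.05, to which it also contributed.

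**Figure D3:**
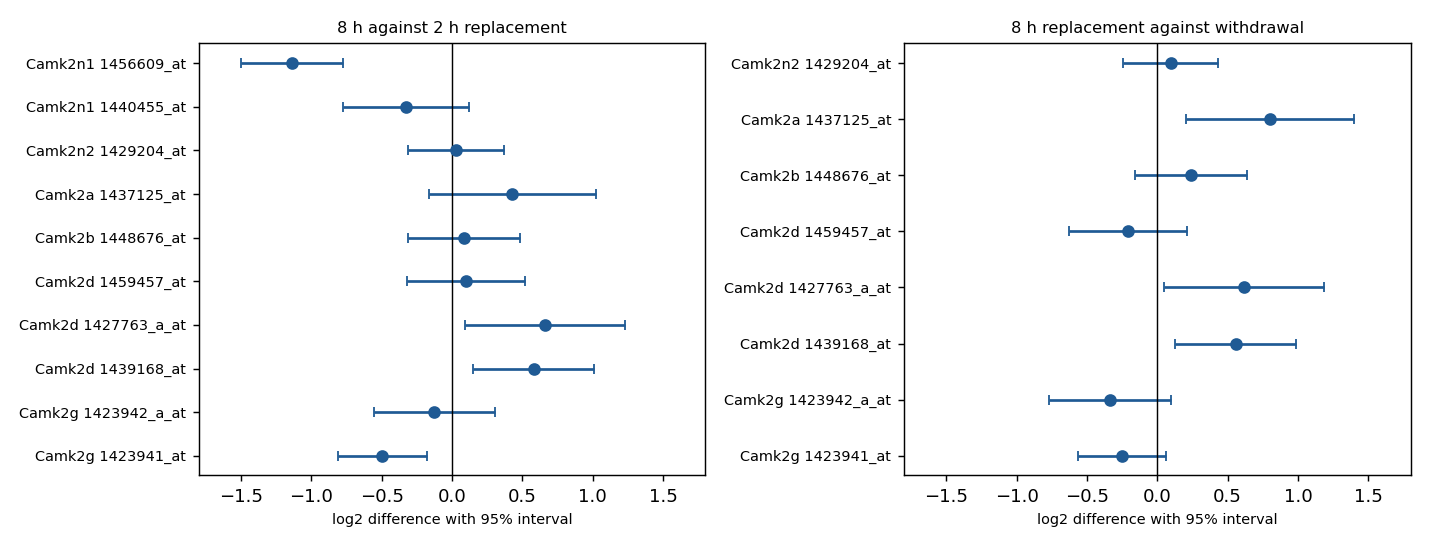
Log2 differences (horizontal axis, limma estimates with 95% intervals) of the 10 member probe sets for 8 h against 2 h of replacement, and of the 8 other than Camk2n1 for 8 h against withdrawal. Camk2n1 1456609_at at -1.14 is the one called; the intervals of the subunit probe sets reach about 1.40 at most.

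Other genes of calcium and calmodulin signalling were counted from 5 lists of 74 genes, each gene by its brightest probe set. These lists, too, were chosen with earlier results of these data known, so the p-values of their genes are given as a description. On withdrawal against maintained cultures, 2 of 14 other calmodulin-dependent kinases were called higher and none lower, with 5.66% of all 13083 genes called. Eef2k, the kinase of translation elongation factor eEF2, rose 2.05-fold, to 259 ± 59.9 after withdrawal against 119 ± 35.5 in maintained cultures (SD, n = 3 each; limma adjusted p = 0.0214). A second Eef2k probe set also rose (log2 0.95) and the third, at a log2 of 0.51, was not called. Dapk2, a death-associated protein kinase, rose 1.78-fold (284 ± 69.2 after withdrawal, 151 ± 14.6 in maintained cultures, limma adjusted p = 0.00616). The median log2 difference of that list was 0.04, against 0.06 over all genes.

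Of 11 calcineurin genes 1 was called on withdrawal, higher, and 6 had a positive difference. Over all genes 5.66% were called, and nothing is read from a count of 1 in this list or the 2 that follow. The called gene was Rcan1, which encodes a calcineurin regulator (1.59-fold, limma adjusted p = 0.0231), but its second probe set was at a log2 of 0.02. Of 6 phosphatase genes 1 was called, lower, and 5 had a negative difference, with a list median of -0.33. The called gene was Ppp1ca, a catalytic subunit of protein phosphatase 1. It read 2493 ± 175 after withdrawal and 4347 ± 188 in maintained cultures (1.74-fold, limma adjusted p = 0.00667). Of 19 genes of calcium stores, entry and pumps 1 was called, lower, and 5 had a negative difference, with a list median of 0.17. The called gene was the sarco/endoplasmic reticulum pump gene Atp2a2 (1.42-fold, limma adjusted p = 0.0277). Its 4 other probe sets were not called, at log2 differences from -0.06 to 0.46. Leaving out single arrays ended some of these calls in limma: Eef2k without withdrawal replicate 3 and without maintained replicate 2 or 3 (adjusted p from 0.0789 to 0.0956), Rcan1 without withdrawal replicate 1 or 3 and without maintained replicate 2 or 3 (adjusted p from 0.0568 to 0.10), and Atp2a2 without withdrawal replicate 2 or 3 and without maintained replicate 2 or 3 (adjusted p from 0.0555 to 0.0910). Dapk2 and Ppp1ca kept theirs without any single array, but each lost it in 1 of 15 alternative fits.

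Of the 11 genes of calmodulin and calmodulin-sequestering proteins, 4 were tested (Pcp4l1, Nrgn, Marcks and Marcksl1) and none was called on withdrawal by limma.

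After the factors returned, calls in these lists were few. At 2 h none of the 54 tested genes was called, where 0.0688% of all genes were. At 4 h, with 1.09% of all genes called, 1 was: Marcks, which encodes a calmodulin-binding membrane protein, at 528 ± 98.2, against 274 ± 40.9 after withdrawal (1.87-fold, limma adjusted p = 0.0244), a call lost without withdrawal replicate 1 or 4 h replicate 2 or 3 (adjusted p from 0.0784 to 0.130). Of the 6 other Marcks probe sets 1 was called in that contrast, at a log2 of 1.28 (limma adjusted p = 0.0402), and 3 were negative, from -0.62 to -0.13. At 8 h against withdrawal (1.41% of all genes), Dapk2 fell to 156 ± 5.46, against 284 ± 69.2 (1.72-fold, limma adjusted p = 0.0232), and Ppp1ca rose to 3935 ± 131, against 2493 ± 175 (1.58-fold, limma adjusted p = 0.0461). The call of Ppp1ca ended when any 1 of the 8 h arrays or withdrawal replicate 1 or 2 was left out (limma adjusted p from 0.119 to 0.159), and that of Dapk2 when any 1 of the 8 h arrays was (limma adjusted p from 0.0823 to 0.0954). The contrasts against withdrawal share its 3 arrays. Marcks was also higher at 8 h than at 2 h (log2 0.78, limma adjusted p = 0.0387), a call lost when any 1 of these 6 arrays was left out (adjusted p from 0.0502 to 0.184). Its 6 other probe sets in this contrast ran from 0.35 to 0.88, none called. At 8 h against maintained cultures none of the 54 was called by limma, with 0.252% of all genes called.

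**Figure D4:**
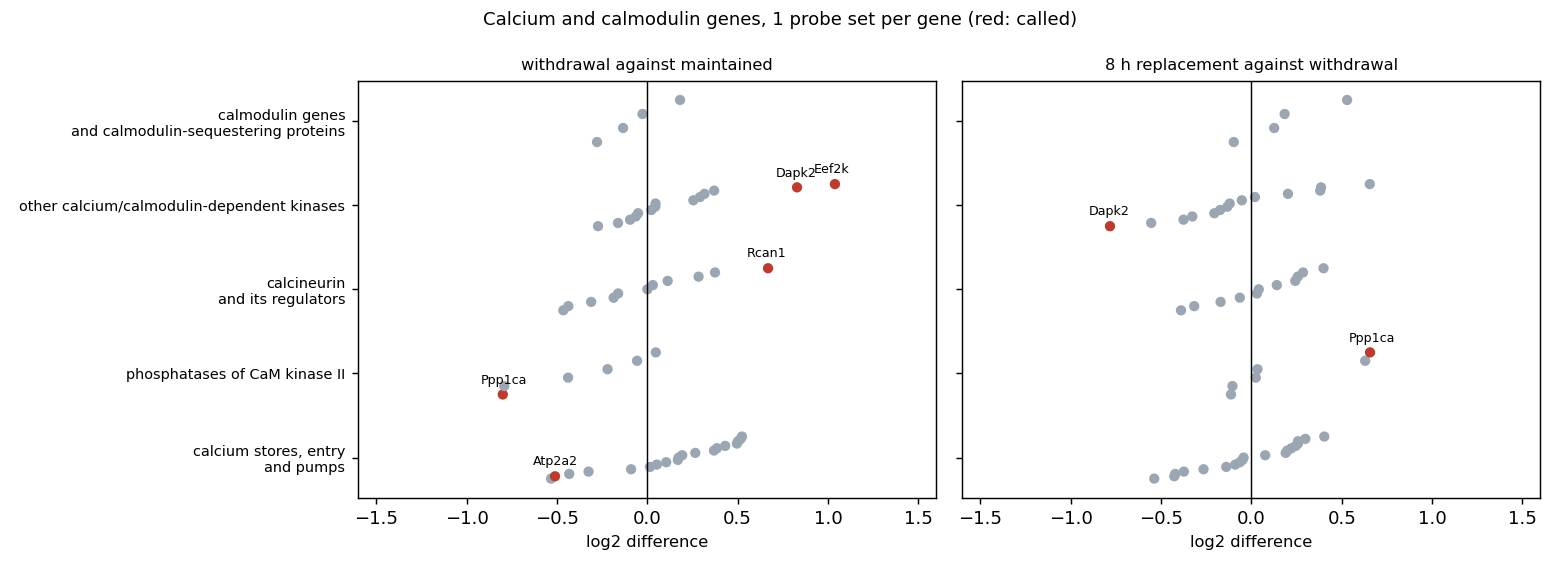
Log2 differences (horizontal axis) of the genes tested in 5 calcium and calmodulin lists, with a point per gene, for withdrawal against maintained cultures and for 8 h of replacement against withdrawal. Red, named points were called by limma: Eef2k, Dapk2, Rcan1, Ppp1ca and Atp2a2 on withdrawal, Dapk2 and Ppp1ca at 8 h.

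Camk2n1 was also matched against every other named probe set above the filter. Likeness was Pearson's r between log2 values over the 15 arrays, which share their groups, and it is given as a description. The highest values were for Rragd (r = 0.97), a Rag GTPase gene of amino acid sensing, and Zmym3 (0.96), a zinc finger gene. They were followed by Igfbp5 (0.96), an insulin-like growth factor binding protein gene, Rspo1 (0.95), which encodes an agonist of WNT signalling, and the zinc finger gene Bnc2 (0.95). Wwp2, a ubiquitin ligase gene, Satb1, a chromatin organiser gene, and Hadhb, of mitochondrial fatty acid oxidation, were each at 0.94.

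Mean signal of Rragd was 1146 after withdrawal, 796 at 2 h, 714 at 4 h and 465 at 8 h, with 257 in maintained cultures. For Zmym3 it was 819, 597, 484 and 275 in the same order, with 124 in maintained cultures. Both thus had their highest mean after withdrawal and lay nearer to maintained cultures at 8 h, as Camk2n1 did. Other probe sets of the matched genes did not always follow as closely. The 3 others of Zmym3 had r of 0.70 to 0.93, that of Bnc2 0.90 and that of Satb1 0.78. Those of Wwp2 were at 0.81 and 0.53 and those of Hadhb at 0.72 and 0.24. The other one of Rragd was at 0.45, yet its mean was 93.6 after withdrawal against 28.0 in maintained cultures. That of Igfbp5 was at 0.02, with means of 267 and 297.

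The most opposite profiles were those of Pnp (r = -0.96), a purine salvage enzyme gene, Pheta1 (-0.95), Castor1 (-0.95), an arginine sensor of the mTORC1 pathway, and Rasl11a (-0.94), a Ras-like GTPase gene. Pnp averaged 358 after withdrawal, 407 at 2 h, 470 at 4 h and 534 at 8 h, with 874 in maintained cultures. Castor1 averaged 262 after withdrawal and 382 at 8 h, with 479 in maintained cultures. Among the probe sets of Camk2n2 and the subunits, r with Camk2n1 ran from -0.51 for Camk2n2 to 0.69 for Camk2g 1423942_a_at, whose high value came from withdrawal replicate 3.

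**Figure D5:**
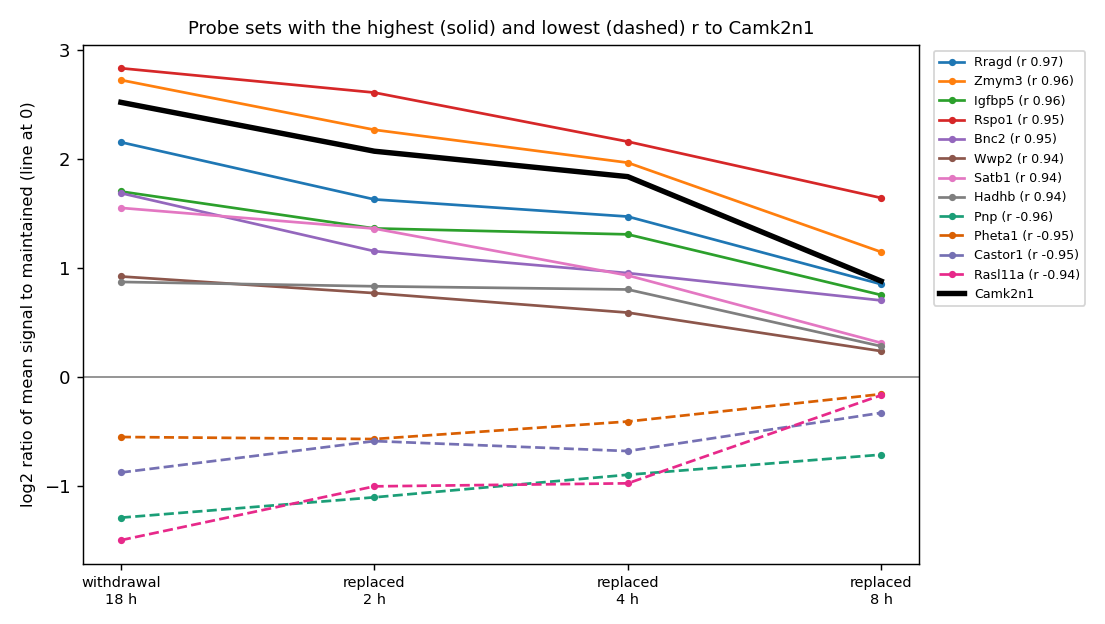
Log2 ratio of each group's mean signal to that of maintained cultures (vertical axis, maintained at 0) after withdrawal and at 2, 4 and 8 h of replacement, for Camk2n1 1456609_at (black) and the probe sets with the highest (solid) and lowest (dashed) r to it. The 8 solid lines are highest after withdrawal and the 4 dashed ones lie below 0 at every time.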

How the data were processed

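RNA from 15 samples was hybridised to single-colour arrays, 1 per sample. Per the labels, the authors computed MAS5 signal, a linear intensity, for 45101 probe sets; no MAS5 version is named in the labels, nor a scaling target. The mean of the middle 96% of values was 150 on every array. Members and lists were chosen with earlier results of these data known.

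Probe sets were named from GEO's platform annotation: 34958 had 1 symbol, 932 several and 9211 none. After 64 control probe sets were removed, signals were transformed as log2(signal + 16), and 27022 remained once the dimmest 40% by mean (cutoff near 30.5) had been dropped. The 5 groups were fitted together in limma 3.58.1 (R 4.3.3; lmFit, eBayes with a variance trend; 10 residual degrees of freedom), with two-sided tests of 6 comparisons. Benjamini-Hochberg adjustment ran over all 27022 probe sets, and a call was an adjusted p under 0.05. The fit was tested on simulated data. Folds are limma estimates on the log2(signal + 16) scale, which draws dim signals together; values with ± are mean and SD of signal. Every member probe set was accounted for; of each pathway list up to 3 called genes were named, and 8 genes with the highest and 4 with the lowest r to Camk2n1. The labels do not say whether replicate numbers pair the samples, and the main fit used no pairing. Same-numbered deviations correlated between -0.23 and 0.38 and no comparison had all 3 over 0.1. With 3 arrays per group these values cannot show whether the samples were paired. Alternatives were other constants, no filter, other scalings, 1 probe set per gene, fewer groups, no variance trend, a replicate block and leaving out each array.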

Additional observations from a re-analysis of the deposited data

How the results depend on the processing

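The Camk2n1 fall at 8 h against 2 h kept its direction and its call under the other constants, scalings, filter, 1 probe set per gene, fewer groups, no variance trend and the replicate block (log2 -1.14, limma adjusted p = 0.0246). Leaving out 1 array gave -1.26 to -0.99, with the call lost without 8 h replicate 1. Fitting only the groups compared gave 200 calls over all probe sets on withdrawal (1195 in the fit of all groups), 0 at 2 h against withdrawal (11), 4 at 4 h (237), 8 at 8 h (278) and 369 at 8 h against 2 h (218). With no filter there were 94 calls at 4 h against withdrawal and 144 at 8 h against 2 h. With no variance trend there were 113 at 4 h against withdrawal and 25 at 8 h against maintained cultures (52). Quantile normalization gave 425 at 8 h against withdrawal, and arrays shifted to 1 median gave 137 at 8 h against 2 h, of which 52.6% were higher (77.5% as scaled by the authors). The causes of these moves were not tested.

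Leaving out 1 array, all calls ran from 489 to 1045 on withdrawal, 6 to 11 at 2 h, 21 to 645 at 4 h and 43 to 290 at 8 h against withdrawal, 4 to 34 at 8 h against maintained cultures and 15 to 123 at 8 h against 2 h. Member calls ran from 1 to 2 on withdrawal, 0 to 1 at 4 h against withdrawal and 0 to 1 at 8 h against 2 h. With 1 probe set per gene, member calls became 1 at 4 h against withdrawal and 1 at 8 h against maintained cultures, both Camk2n1. Camk2n1 was taken to have been chosen on withdrawal and maintained arrays. Nothing is therefore read from its calls in contrasts that use them, nor from member calls on withdrawal. The replicate block changed the call of 1 named result, Ppp1ca at 8 h against withdrawal (limma adjusted p = 0.0656). Each call of a calcium or calmodulin gene was refitted in 15 alternatives, single arrays left out included. It was lost in 10 for Ppp1ca at 8 h against withdrawal and in 9 for Marcks at 8 h against 2 h. On withdrawal it was lost in 7 for Atp2a2, 6 for Rcan1, 4 for Eef2k and 1 each for Dapk2 and Ppp1ca. Marcks at 4 h and Dapk2 at 8 h against withdrawal each lost it in 4. The 9 Camk2a and Camk2d probe sets under the filter had too little signal to be measured well.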
